A study of Homo sapiens with 3 samples.

Results

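The genes described here encode the core machinery that makes microRNAs (miRNAs) and carries out silencing by them. They are *DROSHA*, *DGCR8*, *XPO5*, *DICER1*, *AGO1*, *AGO2*, *AGO3*, *AGO4*, *TNRC6A* and *TNRC6B*. They were named for their function, and a probe was assigned to a gene when the RefSeq accession given for it on the array mapped to the gene's symbol. All 10 genes were found this way among the 22439 named genes on the array, and 14 probes with 23 spots read them. Of the 10 genes, 7 had 1 probe, 2 had 2 probes and 1 had 3 probes.

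Gene expression was measured in A549, a human lung adenocarcinoma line, on 3 Agilent arrays of 1 colour. The mock array held RNA of cells given transfection reagent only, Lipofectamine RNAiMAX without a miRNA. The other arrays held RNA of cells given the same reagent with *miR-139-5p* or *miR-139-3p*, each at 10 nM, the concentration that the methods give for all miRNA precursors. The time between transfection and RNA extraction is not stated for the arrays. With 1 array per condition there was no spread between cultures to set a difference against, and no test could be made. Precision is thus limited by having so few arrays. The file headers place mock and *miR-139-5p* together on slide 1 and *miR-139-3p* on slide 2, so for *miR-139-3p* slide and transfection cannot be told apart. Both comparisons against mock use the same mock array, so their values are given side by side and are not independent of each other.

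The A549 label was checked against marker genes. All 5 epithelial markers (*KRT8*, *KRT18*, *KRT19*, *EPCAM* and *CDH1*) and all 5 genes of the NRF2 pathway that are high in this line (*AKR1B10*, *AKR1C1*, *ALDH1A1*, *NQO1* and *TXNRD1*) had a probe well above background on every array. The alveolar markers *NKX2-1* and *SFTPB* were not well above background on any array, and *SFTPC* was dim, with a signal of 17.3 in mock. The endothelial marker *PECAM1* was not well above background either. The leukocyte marker *PTPRC* had 2 of 5 probes above it, both dim, at 10.3 and 6.23 in mock. *VIM* was bright at 13846 in mock and *COL1A1* was at 40.1, so mesenchymal genes were not absent. *CDKN2A* is known to be deleted in A549, but 1 of its 2 probes was well above background in mock, at 307, and after *miR-139-5p*, at 339. The spot of that probe was marked as an outlier on the *miR-139-3p* array, and the source of its signal was not tested.

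A miRNA is cut from a longer transcript in the nucleus by the Microprocessor, in which DGCR8 binds the hairpin and DROSHA cleaves it. Exportin 5, the product of *XPO5*, carries the hairpin to the cytoplasm, where DICER1 removes the loop. A strand of the resulting duplex is loaded into an Argonaute protein (AGO), which pairs with target mRNAs through the seed of the strand and recruits a TNRC6 protein, also called GW182, and through it the enzymes that shorten the poly(A) tail and remove the cap. Inherited *DICER1* mutations predispose to a lung tumour of childhood.

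The mature strands are shown because they give the transfected miRNAs their names and seeds, though what the methods name as transfected are precursors, and their hairpin is shown because it is the kind of substrate that DROSHA and DICER1 cut. The sequences are those of RefSeq. In the mature strands the capitals mark the seed, bases 2 to 8 from the 5′ end. In the hairpin the capitals mark the mature strands, at bases 7 to 29 and 43 to 65.
miR-139-5p: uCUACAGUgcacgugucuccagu
miR-139-3p: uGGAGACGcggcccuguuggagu
MIR139 hairpin: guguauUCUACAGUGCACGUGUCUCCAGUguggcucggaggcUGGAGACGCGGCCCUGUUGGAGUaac
The hairpin has 68 bases and lies on the minus strand at chr11:72615063-72615130 of GRCh38.p14. The mature strands have 23 bases each, and their seeds, CUACAGU and GGAGACG, differ, so they are treated as separate miRNAs throughout.

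The deposited signal of a spot is its brightness after the scanner software subtracted the background, in arbitrary units. It depends on the probe as well as on the amount of mRNA, so signals are compared between arrays for the same probe and not between genes. All 14 probes were well above background on all 3 arrays, and 0 of their spots were marked as outliers. Differences are log2 values after each array was scaled to the 75th percentile of its signals, which was 93.6 in mock, 88.9 after *miR-139-5p* and 81.0 after *miR-139-3p*. A gene's difference is the mean over its probes. A gene counted as higher above 0.5 and as lower below -0.5. The scanner software's own error of a difference had a median of 0.20 over the 14 probes in each comparison against mock. Over all genes with several probes, the median SD between the probes of a gene was 0.28 for *miR-139-3p* against mock and 0.15 for *miR-139-5p* against mock.

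**Figure D1:**
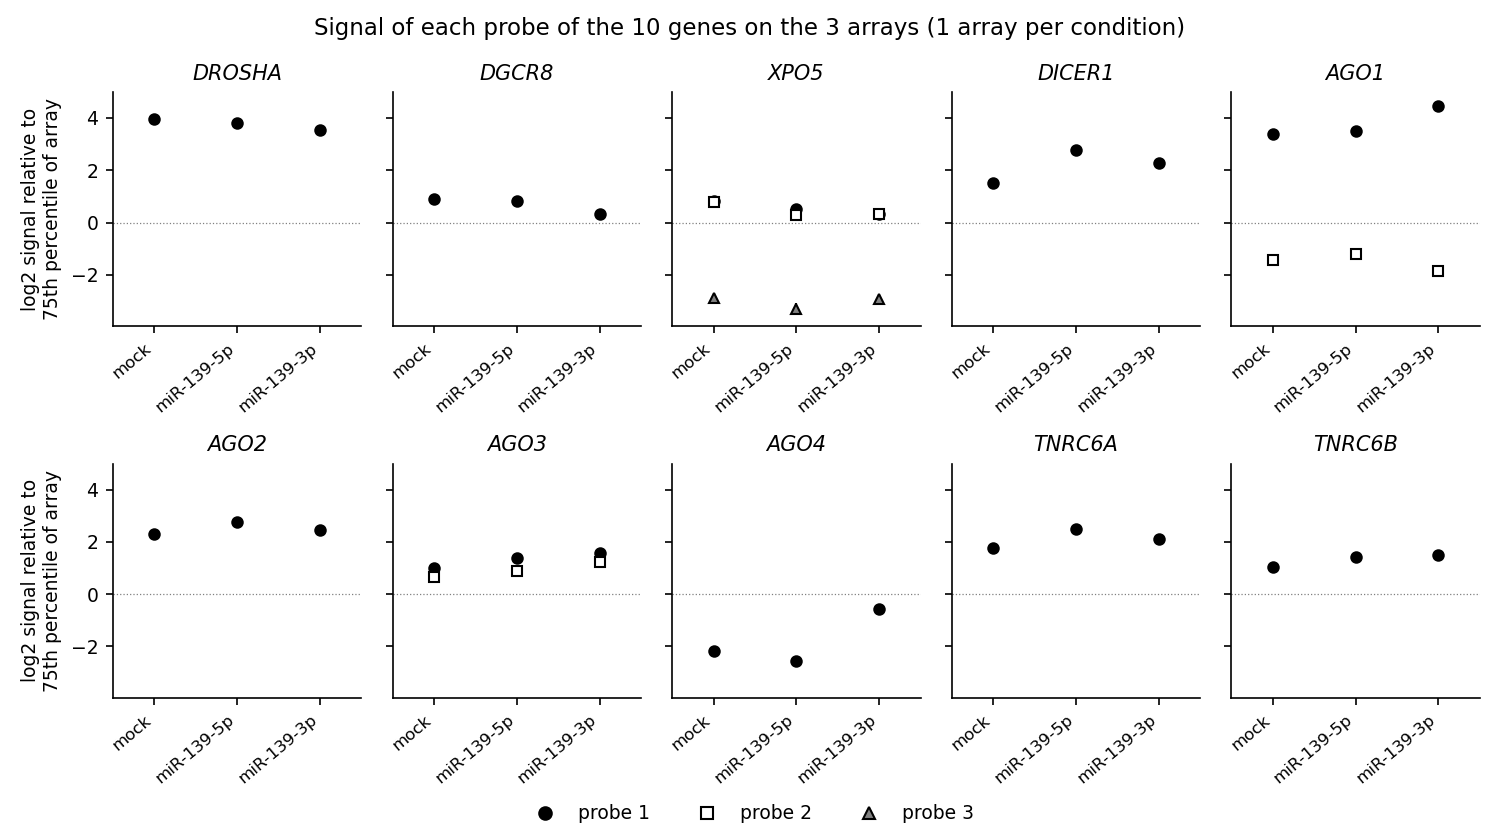
Level of each probe of the 10 genes on the 3 arrays, as log2 signal relative to the 75th percentile of the array, with 1 point per probe and array and the symbols marking the probes of a gene. *DICER1* has its lowest point in mock at 1.53, *AGO4* stands out on the *miR-139-3p* array at -0.56 against -2.19 in mock, and the probes of *AGO1* part on that array.

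*DROSHA* encodes the nuclear RNase III enzyme of the Microprocessor. Its probe gave a signal of 1452 in mock, 1261 after *miR-139-5p* and 942 after *miR-139-3p*. With *miR-139-3p* the log2 difference from mock was -0.42, and with *miR-139-5p* it was -0.13. The level was lowest on the *miR-139-3p* array, within the threshold in both comparisons, and the *miR-139-5p* value was smaller than the scanner error. With normexp, for which no scanner error was computed, the *miR-139-3p* value was -0.13.

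*DGCR8* encodes the partner of DROSHA that binds the hairpin. Its signal was 175 in mock, 156 after *miR-139-5p* and 100.5 after *miR-139-3p*. With *miR-139-3p* the log2 difference from mock was -0.59, or 66.3% of mock, and with *miR-139-5p* it was -0.09. The *miR-139-3p* array was the low one, and the mock and *miR-139-5p* levels did not differ beyond the scanner error. *DGCR8* was the only one of the 10 genes that counted as lower in a comparison with mock, though *DROSHA* and *XPO5* did so too with *miR-139-3p* without scaling and with scaling to spike-in RNA. *DGCR8* itself was within the threshold, at -0.42, with the 75th percentile taken over detected probes, and at -0.37 with normexp background correction and quantile normalization. It was not far out among all genes, since 25% of named genes measured had a lower value in that comparison.

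*XPO5* encodes the nuclear export receptor of miRNA hairpins and had 3 probes. The bright probes gave 164 and 161 in mock, 127 and 109.9 after *miR-139-5p*, and 101 and 102 after *miR-139-3p*. The dim probe gave 12.5, 8.94 and 10.5 in the same order. The mean log2 difference was -0.33 after *miR-139-3p* (SD between probes 0.25) and -0.40 after *miR-139-5p* (SD 0.09). All 3 probes were below mock in both comparisons and within the threshold. With *miR-139-3p* the dim probe was at -0.05 while the bright ones were at -0.49 and -0.45. With *miR-139-5p* the difference of *XPO5* was larger than the spread of its probes, and 16.5% of named genes measured had a lower value, though with normexp it was -0.16.

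*DICER1* encodes the cytoplasmic RNase III enzyme that cuts the loop from the exported hairpin. Its probe gave a signal of 269.5 in mock, 603 after *miR-139-5p* and 395 after *miR-139-3p*. Both transfected arrays were above mock, and *miR-139-5p* was the highest. The log2 difference was 1.23 after *miR-139-5p*, or 235% of mock, and 0.76 after *miR-139-3p*, or 169% of mock. *DICER1* was the only gene of the 10 past the threshold in both comparisons against mock, though *TNRC6A* was as well under 3 alternatives: quantile normalization, the percentile over detected probes, and normexp. With *miR-139-5p*, 0.839% of named genes measured had a higher value. With *miR-139-3p*, where differences of all genes were wider, 15.9% did. The log2 difference between the transfected arrays was -0.47, within the threshold, but -0.61 without scaling, -0.79 with scaling to spike-in RNA and -0.17 with normexp. All of these values rest on 1 probe with 1 spot per array.

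The Argonaute proteins hold the guide strand, and AGO2 is the member known best for cutting targets that pair along their whole length. The probe of *AGO2* was printed in 10 spots on each array. Their signals ran from 452 to 478 in mock, from 583 to 637 after *miR-139-5p* and from 422 to 454 after *miR-139-3p*. Before scaling, the spots after *miR-139-5p* lay above all mock spots, and those after *miR-139-3p* overlapped with mock. As scaled log2 levels they ran from 2.27 to 2.35 in mock, from 2.71 to 2.84 after *miR-139-5p* and from 2.38 to 2.49 after *miR-139-3p*, with no overlap, so whether *miR-139-3p* and mock overlap depends on the scaling. The SD between the spots was 0.03 in mock and 0.04 on each of the other arrays on the log2 scale, which is spread within an array only. The log2 difference from mock was 0.47 with *miR-139-5p*, just within the threshold, and 0.13 with *miR-139-3p*. The last value is below the scanner error, which was taken per spot and not for the mean over 10 spots. The direction of this value depended on the scaling: it was -0.08 without scaling and -0.06 with scaling to spike-in RNA. With scaling to spike-in RNA *AGO2* passed the threshold with *miR-139-5p*, at 0.58.

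*AGO1* had 2 probes that went apart with *miR-139-3p*. The bright probe gave 988 in mock, 1020.2 after *miR-139-5p* and 1762 after *miR-139-3p*. The dim probe gave 34.6, 38.7 and 22.4 in the same order. The bright probe was thus highest, and the dim probe lowest, on the *miR-139-3p* array. Their log2 differences from mock were 1.04 and -0.42, so the mean of 0.31 (SD 1.03) gives no direction for the gene. With *miR-139-5p* they were at 0.12 and 0.24, with a mean of 0.18 (SD 0.08). Whether the probes read different transcripts of *AGO1* was not tested.

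*AGO3* had 2 probes that stayed together. They gave 188 and 149 in mock, 235 and 164 after *miR-139-5p*, and 240.4 and 191 after *miR-139-3p*. Scaled to the arrays, both probes were lowest in mock and highest after *miR-139-3p*. The log2 difference with *miR-139-3p* was 0.57, with the probes at 0.56 and 0.57. It was within the threshold without scaling, at 0.36, and with scaling to spike-in RNA, at 0.37. With *miR-139-5p* it was 0.31 (SD between probes 0.12), within the threshold. *AGO3* with *miR-139-3p* was, with the scaling used, the only value past the threshold in a comparison with mock that more than 1 probe of a gene carried. It is a modest one, since 21.6% of named genes measured had a higher value in that comparison.

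*AGO4* had a dim probe and, in the values reported, the widest swing of the 10 genes. Its signal was 20.5 in mock, 15.2 after *miR-139-5p* and 55.1 after *miR-139-3p*. The *miR-139-3p* array was the high one, and the *miR-139-5p* array was the lowest. The log2 difference from mock reached 1.63 for *miR-139-3p*, or 310.4% of mock, and was -0.36 for *miR-139-5p*. With *miR-139-3p*, 3.10% of named genes measured had a higher value. The log2 difference between *miR-139-3p* and *miR-139-5p* was 1.99, and 1.59% of named genes measured had a higher value there. The scanner error of these differences was 0.22 after *miR-139-3p* and 0.24 after *miR-139-5p*. The *miR-139-3p* difference was 0.58 with median signals, normexp background correction with an offset and quantile normalization, which were changed together. The difference between the transfected arrays was 0.72 in the same way. With *miR-139-5p*, *AGO4* was below mock, within the threshold, and with normexp, for which no scanner error was computed, it was at -0.14. The other Argonaute genes were above mock with *miR-139-5p*. With *miR-139-3p* all 4 were above mock in the values reported, with the limits given for *AGO1* and *AGO2*.

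The TNRC6 proteins link Argonaute to the deadenylases. The probe of *TNRC6A* gave 319 in mock, 499 after *miR-139-5p* and 352 after *miR-139-3p*. The log2 difference was 0.72 after *miR-139-5p*, or 165% of mock, and 0.35 after *miR-139-3p*. The *miR-139-3p* value passed the threshold under 3 of 11 alternatives. Without scaling it was 0.15 and with scaling to spike-in RNA 0.16, both below the scanner error. As for *DICER1*, the level was lowest in mock and highest after *miR-139-5p*, where 4.44% of named genes measured had a higher value. The probe of *TNRC6B* gave 193 in mock, 236 after *miR-139-5p* and 228 after *miR-139-3p*. The log2 difference was 0.36 after *miR-139-5p* and 0.45 after *miR-139-3p*, both within the threshold. With normexp the *miR-139-5p* value was 0.195. The scanner error of 0.204 is that of the value reported, and none was computed for normexp. The *miR-139-3p* value was 0.24 without scaling and passed the threshold under 3 of 11 alternatives. The levels of *TNRC6B* on the transfected arrays differed by 0.09, less than the scanner error.

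**Figure D2:**
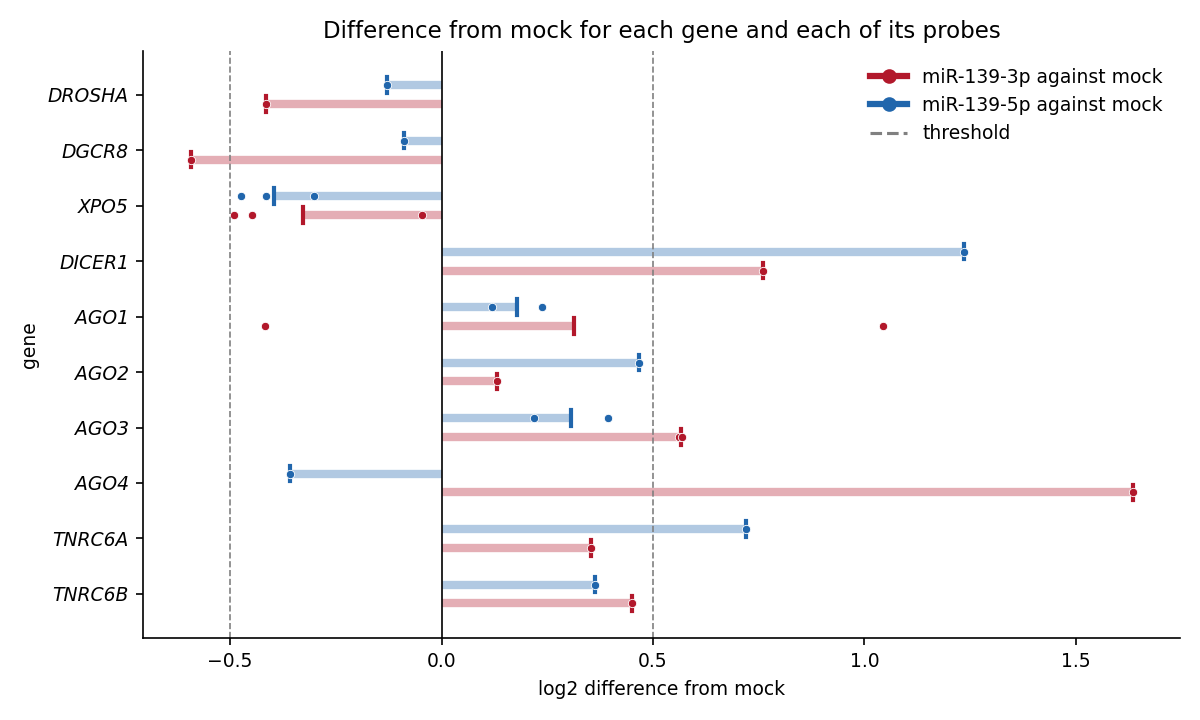
Log2 difference from mock for each gene (bar with end mark) and each of its probes (points), with *miR-139-3p* in red and *miR-139-5p* in blue, and dashed lines at the threshold of 0.5. *DICER1* passes the threshold with both miRNAs, *AGO4* lies at 1.63 and -0.36, and the *AGO1* probes lie at 1.04 and -0.42 with *miR-139-3p*.

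The comparison of *miR-139-3p* with mock asks which genes differ after transfection of the strand that the study is about. In it 1 of the 10 genes counted as lower, *DGCR8*, while 27.9% of the 15572 named genes with a value did. In it 3 of the 10 counted as higher, *AGO3*, *AGO4* and *DICER1*, while 26.5% of the named genes did. Such a count is near the background and is no result about the 10 genes. Their median difference was 0.33, against -0.09 over all named genes measured on both arrays, and it ran from 0.12 without scaling to 0.50 with the percentile over detected probes. They ran from -0.59 to 1.63.

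The comparison of *miR-139-5p* with mock asks the same of the strand from the other arm. In it 0 of the 10 genes counted as lower, while 12.3% of the 15018 named genes with a value did. The 2 that counted as higher, *DICER1* and *TNRC6A*, stand beside 10.7% of the named genes. The median of the 10 genes was 0.24, from 0.13 with normexp to 0.36 with scaling to spike-in RNA, against 0.00 over all named genes measured. They ran from -0.40 to 1.23. The spread of all genes measured was narrower here, with an SD of 0.45, than with *miR-139-3p*, with an SD of 0.87. For this reason the same log2 difference places a gene farther out with *miR-139-5p*.

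The comparison of the transfected arrays with each other leaves out the mock array but crosses the slides. Here *DGCR8* counted as lower, at -0.50 and only just past the threshold, while 27.9% of the 15428 named genes with a value did. Of the alternatives that could change its value, it kept the call without scaling, at -0.64, and with scaling to spike-in RNA, at -0.81. It was within the threshold with quantile normalization (-0.42), the percentile over detected probes (-0.31), normexp (-0.26) and the deposited table (-0.48). *AGO4* counted as higher, while 26.4% of them did. The median of the 10 genes was -0.11, close to that of all named genes measured, at -0.09, and it ran from -0.42 with scaling to spike-in RNA to 0.08 with the percentile over detected probes. The other 8 genes lay within the threshold, from -0.47 for *DICER1* to 0.26 for *AGO3*. Without scaling *DICER1* and *TNRC6A* counted as lower too, and with scaling to spike-in RNA these and *AGO2* and *DROSHA* did, while *AGO3* was at -0.05. Those counts of 3 and 5 stand beside 34.2% and 42.8% of all named genes lower under the same scaling and are near that background. Among the 8, *XPO5* at 0.07 and *TNRC6B* at 0.09 were smaller than the scanner error, and *AGO1* at 0.13 again joined probes of opposite direction, at 0.92 and -0.65.

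The 10 genes were also grouped by where in the cell they act. This grouping was chosen after the values were seen, so it is a description only. With *miR-139-3p* all 3 genes of nuclear processing and export, *DROSHA*, *DGCR8* and *XPO5*, were below mock, with a median of -0.42. All 7 genes that act in the cytoplasm were above mock, with a median of 0.45, but *AGO2* was on the other side without scaling and with scaling to spike-in RNA, and *AGO1* rests on probes of opposite direction. Of all named genes measured, 54.5% were below mock and 45.5% above it. With *miR-139-5p* the 3 nuclear genes were also below mock, with a median of -0.13, except that *DGCR8* was at 0.03 with scaling to spike-in RNA, and *DROSHA* and *DGCR8* differed from mock by less than the scanner error. Of the 7 cytoplasmic genes, 6 were above mock with *miR-139-5p*, *AGO4* being the exception, and their median was 0.36. Of all named genes measured, 49.8% were below mock and 50.2% above it. Between the transfected arrays, *miR-139-3p* against *miR-139-5p*, 2 of the 3 nuclear genes were below 0 and 1 above it, and of the 7 cytoplasmic genes 3 were below and 4 above, where 55.3% of all named genes measured were below. The nuclear gene above 0 was *XPO5*, which kept that sign under 5 of 11 alternatives, some of which could not change it. Without scaling all 3 nuclear genes and 5 of the 7 cytoplasmic genes were below 0, and with scaling to spike-in RNA 3 and 6 were, so no split is read from that comparison. Most of the values against mock were within the threshold, and since both comparisons take the same mock array as reference, the likeness of the directions is no support for either. All lists of partners described further on but the nuclear cofactors were taken as cytoplasmic, though the tailing list holds *XRN2*, a nuclear exonuclease. The lists followed the grouping only in part. With *miR-139-3p* the medians of nuclear cofactors (-0.38), decapping (0.14) and tailing (0.39) went with it. Those of Dicer partners with loading chaperones (-0.43), deadenylases (-0.41) and Argonaute partners (-0.12, a sign that depended on the processing) did not. With *miR-139-5p* those of deadenylases (0.13) and Argonaute partners (0.07) went with it. Those of nuclear cofactors (0.11), Dicer partners with chaperones (-0.34), decapping (-0.17) and tailing (-0.36) did not. Without scaling and with scaling to spike-in RNA, which were not run for the lists, all values of *miR-139-3p* against mock shift down together. *AGO2*, reported at 0.13, crossed 0 there, so the sign of the decapping median with *miR-139-3p* depends on the scaling as well.

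**Figure D3:**
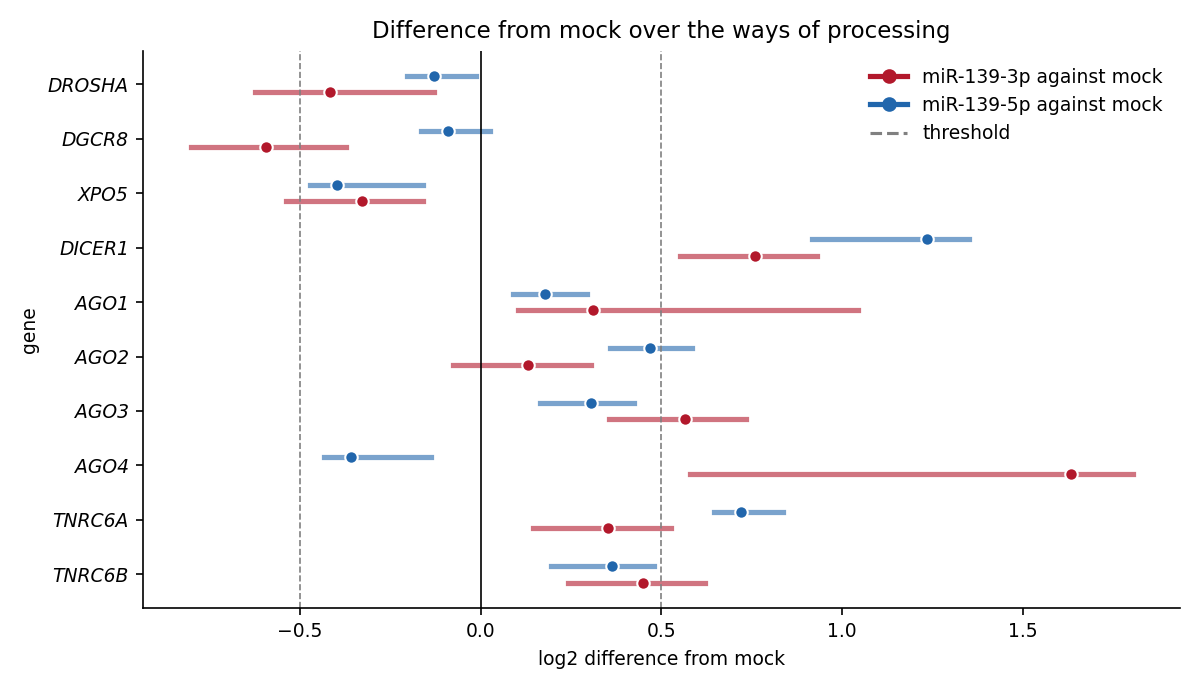
Lowest to highest log2 difference from mock of each gene over the ways of processing tried (lines), with the value reported as a point, *miR-139-3p* in red, *miR-139-5p* in blue and dashed lines at the threshold. *DICER1* stays above 0.5 in both comparisons, while *AGO2* with *miR-139-3p* and *DGCR8* with *miR-139-5p* cross 0, and *AGO4* with *miR-139-3p* runs from 0.58 to 1.80.

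The proteins that work with the 10 gene products were followed in 6 lists. Together 63 genes of the lists were measured for *miR-139-3p*, of which 14 were lower and 7 higher than mock, with a median of -0.26. For *miR-139-5p* 64 were measured, of which 7 were lower and 1 higher, with a median of 0.04. Of all named genes 27.9% counted as lower and 26.5% as higher after *miR-139-3p*, and 12.3% and 10.7% after *miR-139-5p*, and the medians of those measured were -0.09 and 0.00. The counts in the lists are small, and none is read as a result about its list. From each list up to 3 genes, taken from those with the largest difference from mock in either comparison, are named, and further genes past the threshold are named as chosen after their values were seen.

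Of the 10 cofactors of the Microprocessor and of other nuclear steps, 3 counted as lower and 0 as higher with *miR-139-3p*, beside 27.9% and 26.5% of all named genes, with a median of -0.38. With *miR-139-5p* 0 were past the threshold and the median was 0.11. *KHSRP*, which promotes the processing of some hairpins, was at -0.78 after *miR-139-3p* and 0.09 after *miR-139-5p*. *ADAR*, which edits double-stranded RNA, was at -0.58 and -0.10.

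Partners of DICER1 and the chaperones that load Argonaute were lower in 3 of 10 genes and higher in 0, with *miR-139-3p* and likewise with *miR-139-5p*, beside 27.9% and 12.3% of all named genes lower. Their median was -0.43 after *miR-139-3p* and -0.34 after *miR-139-5p*, opposite in sign to *DICER1* itself. The chaperone gene *HSPA8* was at -0.87 after *miR-139-3p* and -0.53 after *miR-139-5p*. The cochaperone gene *STIP1* was at -1.03 and -0.29. *PTGES3*, which encodes the cochaperone p23, had the larger difference with *miR-139-5p*, at -0.76, and was at -0.18 with *miR-139-3p*. The remaining gene past the threshold in both comparisons, chosen after its values were seen, was the HSP90 activator *AHSA1*, at -0.76 after *miR-139-3p* and -0.52 after *miR-139-5p*.

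Of the 13 partners of Argonaute and GW182, 0 were lower and 4 higher after *miR-139-3p*, beside 27.9% and 26.5% of all named genes, with a median of -0.12 that became 0.02 with quantile normalization and 0.05 with the percentile over detected probes. With *miR-139-5p* 1 was lower and 1 higher, with a median of 0.07. *ZSWIM8*, part of a ubiquitin ligase that degrades Argonaute bound to certain targets, gave a signal of 739 in mock, 821 after *miR-139-5p* and 2031 after *miR-139-3p*. Its difference was 1.67 after *miR-139-3p* and 0.23 after *miR-139-5p*. *FXR1*, an RNA-binding protein, was at 0.82 and 0.41, and its 3 probes ranged from 0.20 to 1.70 with *miR-139-3p*, the dimmest being the highest. *TNRC6C*, the paralogue of *TNRC6A* and *TNRC6B*, was at 0.73 and 0.23 from 1 of its 2 probes, the other being above background by that measure after *miR-139-3p* alone. With *miR-139-3p* all 3 TNRC6 genes were thus above mock, and *TNRC6C* alone passed the threshold, though *TNRC6A* and *TNRC6B* passed it too with quantile normalization and with the percentile over detected probes, *TNRC6A* with normexp and *TNRC6B* with the deposited table. Chosen after their values were seen, *FMR1*, the paralogue of *FXR1*, was at 0.64 after *miR-139-3p* and -0.71 after *miR-139-5p*, and *LIMD1* was at -0.18 and 0.62. The opposite values of *FMR1* were each shared by its 2 probes, with an SD of 0.08 and 0.01.

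**Figure D4:**
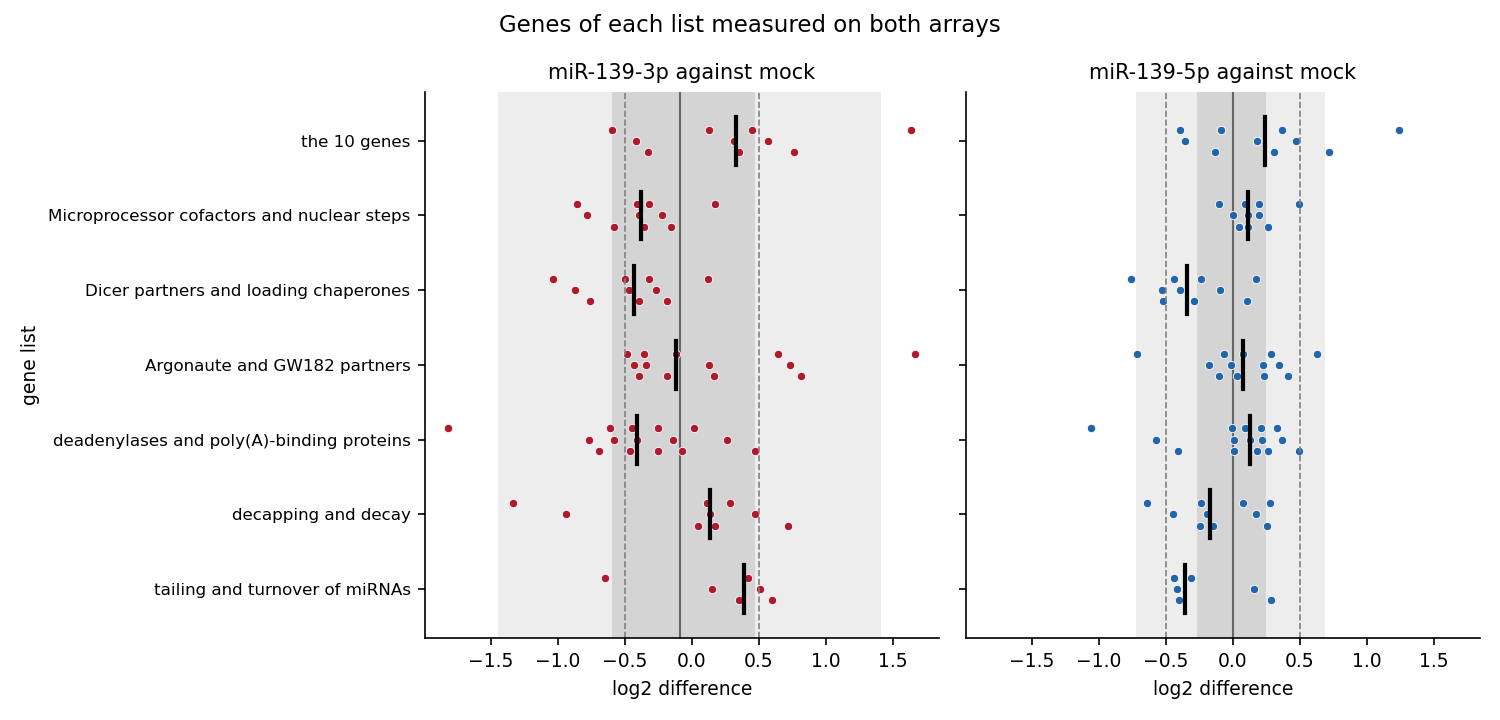
Log2 difference from mock of the 10 genes and of each gene in the 6 lists (points), with the median of each row as a black bar, for *miR-139-3p* at left and *miR-139-5p* at right. The shaded bands span the middle 50% and 90% of all named genes measured, the solid line is their median and the dashed lines are the threshold, and the bands are wider for *miR-139-3p*.

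The deadenylases and poly(A)-binding proteins, which act after TNRC6, were lower in 5 of 15 genes and higher in 0 with *miR-139-3p*, beside 27.9% and 26.5% of all named genes, with a median of -0.41. After *miR-139-5p* 2 counted as lower and 0 as higher, with a median of 0.13. For *CNOT6* of this list no probe was named. *PARN*, a deadenylase that also trims small RNAs, gave a signal of 618 in mock, 281 after *miR-139-5p* and 152 after *miR-139-3p*. Its difference was -1.81 after *miR-139-3p* and -1.06 after *miR-139-5p*, the lowest value of all lists in either comparison. The catalytic subunits of the CCR4-NOT deadenylase *CNOT7* and *CNOT8* were at -0.77 and -0.69 with *miR-139-3p*, and both were at 0.01 with *miR-139-5p*. Chosen after their values were seen, *CNOT11* at -0.61 and *PABPC4* at -0.58 complete the lower genes for *miR-139-3p*, and *PAN3* at -0.57 those for *miR-139-5p*. The 2 probes of *CNOT7* differed in size with *miR-139-3p*, at -0.48 and -1.05.

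In decapping and decay 2 of 9 genes were lower and 1 higher after *miR-139-3p*, beside 27.9% and 26.5% of all named genes, with a median of 0.14. *DCP2*, the decapping enzyme, had no value there because its spot was marked as an outlier. With *miR-139-5p* 1 of 10 was lower and 0 higher, with a median of -0.17. *EDC3*, an enhancer of decapping, was at -1.34 after *miR-139-3p* and -0.64 after *miR-139-5p*. *PATL1*, a scaffold of decapping, was at -0.93 and -0.24. *LSM14A*, a P-body protein, was at 0.72 and 0.28, with its bright probe at 0.33 and its dim probe at 1.11 for *miR-139-3p*.

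In tailing and turnover of miRNAs 1 of 6 genes was lower and 2 higher with *miR-139-3p*, beside 27.9% and 26.5% of all named genes, with a median of 0.39. With *miR-139-5p* 0 were past the threshold and the median was -0.36. *LIN28A* of this list was not well above background. *LIN28B*, which blocks processing of let-7, was at 0.51 after *miR-139-3p* and -0.42 after *miR-139-5p*. *TENT2*, a poly(A) polymerase that adds bases to miRNAs, was at 0.60 and -0.31. *XRN2*, a nuclear exonuclease, was at -0.65 and -0.44, so the list held genes of both directions with *miR-139-3p*.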

How the data were processed

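RNA of 3 A549 cultures was read on 1 Agilent array each. For every spot the authors deposited its intensity as read by Agilent Feature Extraction 12.1.1.1, background subtracted and not normalized between arrays. They also deposited a log2 table per probe. Its values correlate with the log2 signals across probes at 0.9988 or more (Pearson, a description), but lie within 0.01 of quantile-normalized signals for 62.2% to 73.4% of probes per array, so its exact method is unknown.

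Outlier spots were left out, 614 in mock, 935 after *miR-139-5p* and 1526 after *miR-139-3p*, and spots of a probe were averaged. A probe was well above background where at least 50% of its spots were. Of 60901 spots per array this held for 49.9%, 48.1% and 53.1% in the same order. Named genes with no probe that passed this on both arrays but with one that did on 1 array got a bound from the brightest such probe, and their directions count in the shares of all named genes. An NM accession was given for 25277 probes, and 24751 of these matched the RefSeq table of GRCh38.p14. The array was designed on another build, so no gene coordinates are given.

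The members and lists were chosen with earlier results of these data known. In each list, the genes named are up to 3, from those with the largest difference in either comparison against mock. In total 12 alternatives were run for the genes and 4 for the lists, and the steps were tested on simulated data. Of the 12, 11 recomputed values and the other raised the threshold. Dropping the filter on dim probes, requiring detection on all 3 arrays or keeping outlier spots could change no value of the 10 genes. Taking the brightest probe or the median over probes could not change the 7 genes with 1 probe. Python 3.11.15, numpy 2.4.6, pandas 2.3.3, matplotlib 3.10.9 and, for normexp with an offset of 50, R 4.3.3 with limma 3.58.1 were used.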

Additional observations from a re-analysis of the deposited data

How the results depend on the processing

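*DICER1* stayed above 0.5 in both comparisons with mock, *AGO4* with *miR-139-3p* and *TNRC6A* with *miR-139-5p*, under all alternatives able to change these values. *DICER1* ran from 0.55 to 0.93 with *miR-139-3p* and from 0.92 to 1.35 with *miR-139-5p*, and *TNRC6A* from 0.65 to 0.84. *AGO3* and *DGCR8* with *miR-139-3p* passed the threshold under 9 of 11 alternatives. Of 330 gene values under alternatives, many unable to move, 23 moved by more than the spread between probes. Of 48 list medians 0 did, though the Argonaute partners' changed sign.

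In *miR-139-3p* against mock the number higher was 3 as reported. It was 5 with quantile normalization, when the 75th percentile was taken over detected probes, and with normexp on median signals. Beside these stand 22.7%, 32.9% and 11.5% of named genes higher. The number higher was 4 with the brightest probe and the deposited table (beside 27% and 21.7%). It was 2 without scaling and with E1A spike-in scaling (beside 19.6% and 20%), and 1 at a threshold of 1 (beside 12.3%). The number lower, 1 as reported, was 0 with the percentile over detected probes, normexp and a threshold of 1. Beside these stand 21.2%, 15.1% and 11.8% of named genes lower. The number lower was 3 without scaling and with E1A (beside 37.8% and 37.0% of named genes lower). In *miR-139-5p* against mock the number higher went from 2, beside 10.7% of named genes, to 1 at a threshold of 1 and to 3 with E1A. The shares of named genes higher there were 1.92% and 16.2%. Between the transfected arrays the number lower, 1 as reported, was 0 with quantile normalization, the percentile over detected probes, normexp, a threshold of 1 and the deposited table. Of named genes 28.9%, 20.5%, 14.9%, 12% and 30.1% were lower there. The number lower was 3 without scaling and 5 with E1A scaling, beside 34.2% and 42.8% of named genes. The number higher was 2 with the brightest probe, beside 26.6% of named genes higher. In the lists with *miR-139-3p*, the percentile over detected probes took the number higher from 7 to 11 and the number lower from 14 to 10. The larger count was thus the higher one there, beside 32.9% of named genes higher and 21.2% lower. A higher threshold lowers a count by construction, and for the others the cause was not tested.

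Scaling shifts all genes together. With the percentile over detected probes, without scaling and with E1A scaling, the median of named genes measured went from -0.09 to 0.08, -0.30 and -0.28 in *miR-139-3p* against mock, and from -0.09 to 0.10, -0.23 and -0.40 between the transfected arrays. The share higher among genes past the threshold went from 48.8% to 60.9%, 34.2% and 35.1%, and from 48.6% to 62.7%, 39.5% and 29.0%. In *miR-139-5p* against mock the median went from 0.00 to 0.12 with E1A scaling, and the share from 46.6% to 33.9% without scaling and 66.5% with E1A. Lower and higher named genes went, with normexp, from 4339 and 4129 to 2336 and 1782 in *miR-139-3p* against mock, from 1847 and 1609 to 576 and 478 in *miR-139-5p* against mock, and from 4303 and 4075 to 2288 and 1908 between the transfected arrays. At a threshold of 1 they were 1842 and 1921, 357 and 288, and 1853 and 1977. With E1A scaling the last comparisons had 1220 and 2418, and 6532 and 2666. With no filter on dim probes 2651 of 22180 named genes were higher with *miR-139-5p*, or 12%, where the filter left 15018 genes and 10.7% higher.

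No paired analysis was possible because a single array per condition leaves nothing to pair and no result comes from a test. The values of 7 of the 10 genes rest on 1 probe. Signal over background limits the dim probes of *AGO4*, *XPO5* and *AGO1* most.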
